A study of Homo sapiens with 18 samples.

Results

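The 8 interferon response genes described here are IRF1, IRF9, STAT2, IFIT1, IFIT2, IFIT3, ISG15 and IFIH1. They were chosen by name as genes of the interferon response, with earlier results of these data known. They were found by matching the Ensembl identifiers of the deposited expression table to gene symbols. All 8 were among the 15258 genes of the table and among the 14512 genes tested, which had a mean of at least 1 TPM (transcripts per 1000000, a level normalised to gene length). The cells were MEL624, an established human melanoma line. KO1 and KO2 were 2 independently derived clonal lines with the PCIF1 gene knocked out, so each stands for 1 clone. The control was 1 line with wild-type PCIF1 that carried a random sgRNA. Each line had 3 replicate libraries of unselected (input) mRNA, A to C, which the series calls biological. Another 9 libraries of mRNA precipitated with an antibody against m6A were not analysed here. No interferon treatment or infection is named in the labels, so the levels are those of cells in standard culture medium.

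Interferons are secreted signals that put cells into an antiviral state. Type I and III interferons bind receptors linked to the JAK kinases, which phosphorylate STAT proteins, STAT2 among them. STAT2 and IRF9 are parts of the factor ISGF3, which binds the interferon-stimulated response element (ISRE) in the promoters of its targets. IRF1 is a transcription factor that is itself induced through STAT dimers at another element, the gamma-activated site (GAS), and that can bind ISRE-like sequence. IFIT1, IFIT2 and IFIT3 are RNA-binding antiviral proteins encoded side by side on chromosome 10, ISG15 is a ubiquitin-like protein attached to other proteins, and IFIH1 encodes MDA5, a cytosolic sensor of double-stranded RNA. IFIT1 is known to distinguish RNA by the methylation of its cap. PCIF1 methylates the N6 position of an adenosine that directly follows the cap, which gives m6Am, so the first transcribed base of a gene bears on whether its mRNA can be a substrate.

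The recovered read totals ranged from 7848089 to 11393206 per library. PCIF1 mRNA stood at 24.0 ± 1.77 TPM in KO1 and 60.3 ± 3.86 TPM in KO2, against 57.6 ± 3.84 TPM in control (SD, n = 3 each). It was 2.40-fold lower in KO1 (limma adjusted p = 1.65e-06) and was not called in KO2 (log2 fold change 0.07, 95% interval -0.098 to 0.23, adjusted p = 0.542). An edit that disrupts a reading frame need not lower the mRNA level, so for KO2 this value does not check the label. Of 7 melanocyte markers MITF alone had a value, and of 5 neural crest and melanoma markers PRAME, AXL and NGFR did. MITF was at 26.3 ± 2.49 TPM in KO1 and 50.0 ± 2.26 TPM in KO2, against 37.1 ± 1.14 TPM in control. Its log2 fold change was -0.50 in KO1 (limma adjusted p = 0.000531) and 0.43 in KO2 (0.00127). With the running median of its neighbouring tested genes on chromosome 3 subtracted, it was -0.59 in KO1 (limma adjusted p = 8.28e-05) and 0.10 in KO2 (0.262). AXL was the most abundant of these 4 markers, at 680 ± 24.2 TPM in KO1 and 662 ± 35.6 TPM in KO2, against 709 ± 11.6 TPM in control. PRAME, a tumour antigen, was at 116 ± 3.50 TPM in KO1 and 112 ± 0.62 TPM in KO2, against 64.6 ± 1.45 TPM in control, 1.80-fold and 1.73-fold higher (limma adjusted p = 2.28e-07 and 3.94e-07). NGFR, a neurotrophin receptor, was at 0.90 ± 0.21 TPM in KO1 and 0.82 ± 0.34 TPM in KO2, against 2.70 ± 0.41 TPM in control, 3.03-fold and 3.52-fold lower (limma adjusted p = 0.00606 and 0.00317). Of 9 leukocyte markers CD68 alone had a value, and none of 3 plasmacytoid dendritic cell or 3 endothelial markers had one. CD68, which is also expressed outside leukocytes, was at 129 to 139 TPM in KO1 and 134 to 143 TPM in KO2, against 180 to 192 TPM in control. Of 4 fibroblast markers 2 had values, and their summed level was 2.76 to 3.52 TPM in KO1 and 1.26 to 1.87 TPM in KO2, against 0.745 to 1.02 TPM in control. LUM, the 1 of them tested, was at 2.39 ± 0.43 TPM in KO1 and 1.15 ± 0.33 TPM in KO2, against 0.067 ± 0.059 TPM in control. It was 45.4-fold and 21.4-fold higher (limma adjusted p = 6.98e-05 and 0.000242). These folds rest on summed reads of 57 in KO1, 26 in KO2 and 1 in control. The part of these markers in the results was not tested. The libraries are of bulk cells, so a change in all cells and a change in some of them cannot be told apart, nor can fewer cells of a kind and less RNA per cell.

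The promoters of the members show which of the elements named above each carries. Promoter sequence from 250 bases before the start was available from RefSeq (GRCh38.p14) for 7 of the 8 members, in 8 entries, 2 of them for IFIT3. IFIT2 was not matched. They were searched on both strands for the ISRE core GAAANNGAAA and the GAS core TTCNNNGAA, where N is any base. The GAS core reads the same on both strands, and no match of 1 pattern overlapped a match of the other. The stretches with a match are printed 5′ to 3′ on the strand of the gene, with each matching core in capitals.
IRF1, chr5:132490877-132490909, minus strand, GAS core: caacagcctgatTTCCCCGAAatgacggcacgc
IRF9, chr14:24161190-24161222, plus strand, GAS core: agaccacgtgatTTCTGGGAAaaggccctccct
IFIT1, chr10:89392495-89392541, plus strand, ISRE core: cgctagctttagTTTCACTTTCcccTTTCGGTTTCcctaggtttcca
IFIT3, upstream start, chr10:89327829-89327896, plus strand, ISRE core: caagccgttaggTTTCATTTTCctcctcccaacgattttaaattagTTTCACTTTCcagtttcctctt
IFIT3, downstream start, chr10:89332423-89332499, plus strand, ISRE core: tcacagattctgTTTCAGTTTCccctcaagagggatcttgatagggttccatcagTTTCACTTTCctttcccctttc
ISG15, chr1:1013372-1013411, plus strand, ISRE core: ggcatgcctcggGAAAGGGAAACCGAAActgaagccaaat
IFIH1, chr2:162318816-162318855, minus strand, ISRE core: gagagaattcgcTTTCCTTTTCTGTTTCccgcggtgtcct
IFIH1, chr2:162318685-162318717, minus strand, ISRE core: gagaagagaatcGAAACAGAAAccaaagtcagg

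IFIT1 held 2 ISRE cores, 116 to 107 and 103 to 94 bases before its start, and each IFIT3 entry held 2. In ISG15 and in the distal stretch of IFIH1 the 2 cores overlapped each other. The ISRE core was thus present in 4 members (IFIT1, IFIT3, ISG15 and IFIH1), against 3.02% of all 35116 promoters in the RefSeq table and 2.37% of those of tested genes. The GAS core was present in IRF1, 124 to 116 bases before the start, and in IRF9, 63 to 55 bases before it, against 6.57% of all promoters and 5.50% of those of tested genes. STAT2 had neither core in this window. Of the 4 members with an ISRE core, IFIT3 was called in each clone and the other 3 in neither, as given below. Among 328 other tested genes with an ISRE core, 25.0% were called higher and 15.5% lower in KO1, against 21.1% and 14.6% of the 10311 tested genes with a promoter. In KO2 the shares were 15.5% higher and 15.2% lower, against 16.1% and 15.3%. For 781 genes with a GAS core, counted the same way, the shares were 21.1% higher and 12.2% lower in KO1. In KO2 those genes had 15.9% higher and 13.8% lower. The first base was A in IRF1, STAT2 and IFIT1, as in 44.4% of all promoters. It was G in IRF9, IFIT3 and ISG15 and C in IFIH1, and the canonical transcripts of GENCODE 44 began with the same bases, and with G in IFIT2. These are annotated starts, and the starts used in MEL624 cells were not measured.

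The members spanned an 8.78-fold range of mean level over the 9 libraries, around a median of 19.3 TPM for all tested genes. In KO1 the order of mean levels was IFIT3 (46.4 TPM), ISG15 (31.2), STAT2 (21.8), IRF1 (16.1), IFIT2 (8.83), IFIT1 (5.79), IRF9 (5.33) and IFIH1 (4.92 TPM). The libraries of neighbours in this order did not overlap down to IFIT1, while IFIT1, IRF9 and IFIH1 overlapped. In KO2 the order was IFIT3 (41.5 TPM), ISG15 (32.1), STAT2 (19.4), IRF1 (12.7), IFIT2 (9.59), IFIH1 (6.06), IFIT1 (5.69) and IRF9 (3.68 TPM). There IFIT3 overlapped ISG15, and IFIH1 overlapped IFIT1. In control ISG15 (33.0 TPM) stood first, above IFIT3 (27.2), STAT2 (19.4), IRF1 (8.91), IFIT2 (6.68), IFIH1 (5.60), IFIT1 (4.38) and IRF9 (4.10 TPM), and the last pair overlapped. IFIT3 and ISG15 thus changed places between each clone and control, with no overlap in KO1 and in control. The summed level of the 8 members was 140 ± 4.44 TPM in KO1 and 131 ± 3.82 TPM in KO2, against 109 ± 2.31 TPM in control (SD, n = 3 each). The 3 IFIT genes together made up 61.1 ± 0.26 TPM in KO1 and 56.8 ± 3.1 TPM in KO2, against 38.2 ± 2.26 TPM in control.

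**Figure D1:**
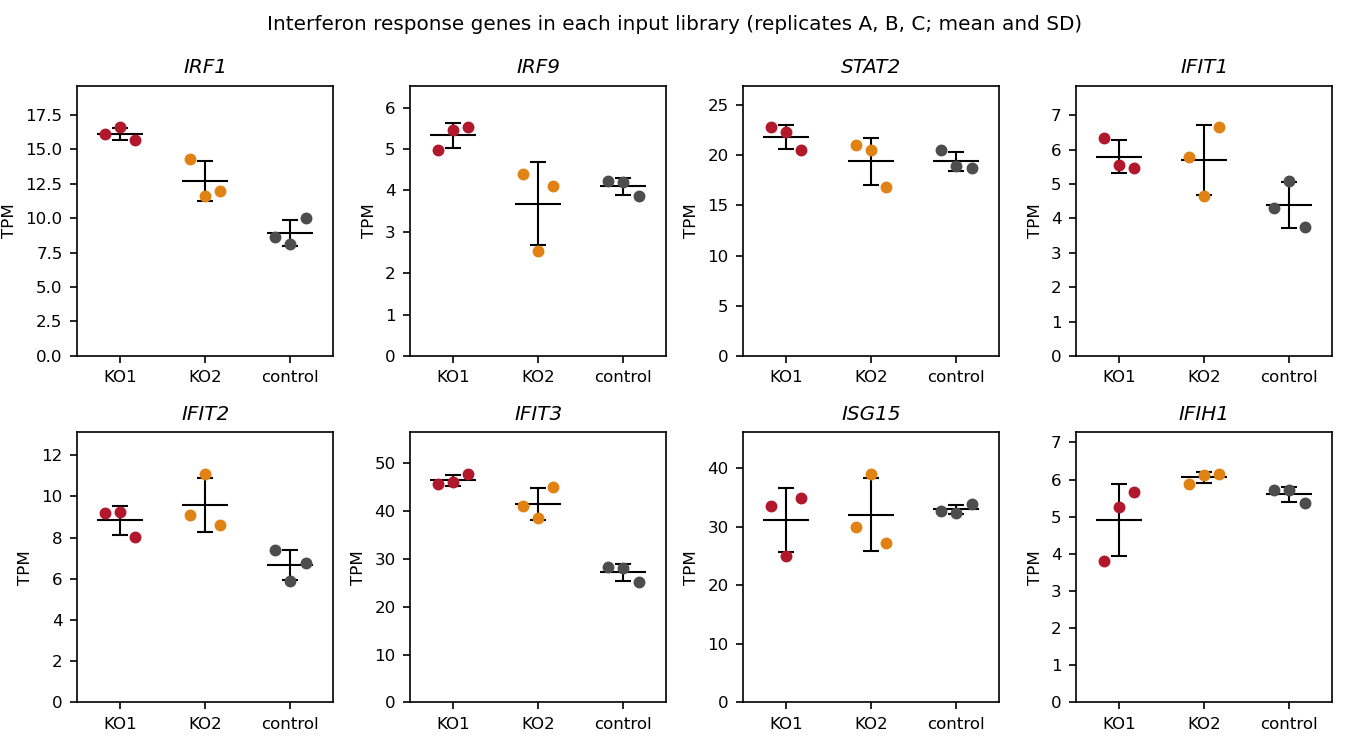
Level of each member in TPM (vertical axes from 0, each panel with its own scale) in the libraries of KO1, KO2 and control. Points are replicates A, B and C from left to right, and the black bars are the mean and SD. IFIT3 and IRF1 of both clones lie above all 3 control libraries, while the libraries of ISG15 overlap in all 3 lines.

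The comparisons of each clone with control ask which members differ in level between that clone and the 1 control line. Within 1 such comparison, the knockout and other differences between the lines cannot be told apart. In KO1, 3 of the 8 members were called higher and 0 lower at a limma adjusted p under 0.05, and 4 had an unadjusted p under 0.05. Over all tested genes 34.3% were called in KO1, 20.2% higher and 14.1% lower, so the members' 37.5% called higher stands beside a background of 20.2%. Because the members were chosen with earlier results of these data known, this contrast is no independent test of them. The share of KO1 calls that were higher was 58.9%, and 47.1% with limma-voom on recovered reads. In KO2, 3 members were likewise called higher and 0 lower, with 4 at an unadjusted p under 0.05. They were IRF1, IFIT2 and IFIT3, and the KO2 call of IFIT2 ended with its neighbours' running median subtracted (limma adjusted p = 0.276). Over all tested genes the KO2 background was 30.4% called, 15.6% higher and 14.8% lower. Both comparisons use the same 3 control libraries, so they are not independent of each other. The median log2 fold change of the members was 0.39 in KO1 and 0.24 in KO2, against 0.035 and 0.0099 for all tested genes. The members' changes ran between -0.21 and 0.86 in KO1 and between -0.20 and 0.61 in KO2, so they did not move as 1 block. All 3 libraries lay above all 3 control libraries for 5 members in KO1 and for 4 in KO2, as for 29.1% and 22.3% of all tested genes.

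Of the transcription factors, IRF1 was the member with the largest change in KO1. IRF1 (ENSG00000125347, hg38 chr5:132440440-132508719, minus strand) had 16.1, 16.6 and 15.7 TPM in KO1 and 14.3, 11.6 and 12.0 TPM in KO2, against 8.61, 8.13 and 10.0 TPM in control. Every library of each clone lay above every control library, and those of KO1 lay above those of KO2. In KO1 it rose by 0.86 ± 0.11 on the log2 scale (SE), a 1.82-fold change (limma adjusted p = 0.00022). In KO2 it rose by 0.51 ± 0.11, a 1.42-fold change (limma adjusted p = 0.00497). It rested on 314 to 376 reads in KO1 and 200 to 282 reads in KO2, against 152 to 218 reads in control. IRF1 shares exon bases with 2 genes on the other strand, 2805 bases (22.9% of its own exon bases) with the long noncoding IRF1-AS1 and 486 bases with the protein-coding ENSG00000283782. The sources used here do not say whether reads were assigned by strand, and reads of these genes cannot be told apart without that setting. IRF1-AS1 was at 2.36 ± 0.31 TPM in KO1 and 1.75 ± 0.39 TPM in KO2, against 1.30 ± 0.29 TPM in control, and it rose in KO1 (log2 fold change 0.88, limma adjusted p = 0.0175). ENSG00000283782 was lower in KO1, with a log2 fold change of -0.18 (limma adjusted p = 0.0477).

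IRF9 and STAT2, the parts of ISGF3 among the members, were called in neither clone. IRF9 (ENSG00000213928, chr14:24161234-24168043, plus strand) had 4.98, 5.47 and 5.53 TPM in KO1 and 4.41, 2.54 and 4.10 TPM in KO2, against 4.24, 4.20 and 3.87 TPM in control. The KO1 libraries lay above control, and in KO2 replicate B stood low with 21 reads. The log2 fold change was 0.38 in KO1 (95% interval -0.06 to 0.81, limma adjusted p = 0.164) and -0.20 in KO2 (-0.63 to 0.24, adjusted p = 0.491). Without KO2 replicate B the KO1 difference passed the threshold (limma adjusted p = 0.0324), as it did when KO1 and control were fitted alone (0.0412), and the KO2 value was 0.05. IRF9 also shares 1544 exon bases (23.9%) on the same strand with the protein-coding ENSG00000259529, which was at 21.0 ± 0.51 TPM in KO1 and 22.8 ± 1.05 TPM in KO2, against 22.9 ± 1.86 TPM in control. STAT2 (ENSG00000170581, chr12:56341597-56360203, minus strand) had 22.8, 22.3 and 20.5 TPM in KO1 and 21.0, 20.5 and 16.8 TPM in KO2, against 20.5, 18.9 and 18.7 TPM in control. The libraries of both clones overlapped or touched those of control. The log2 fold change was 0.17 in KO1 (95% interval -0.03 to 0.38, limma adjusted p = 0.178) and -0.0013 in KO2 (-0.21 to 0.21, adjusted p = 0.993).

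Of the effectors, IFIT3 rose in each clone and was the most abundant member in both. IFIT3 (ENSG00000119917, chr10:89327307-89377473, plus strand) had 45.6, 46.0 and 47.8 TPM in KO1 and 41.0, 38.5 and 45.0 TPM in KO2, against 28.4, 28.0 and 25.2 TPM in control. No library of a clone overlapped a control library. IFIT3, which binds and stabilises IFIT1, rose by 0.78 ± 0.07 on the log2 scale in KO1, a 1.71-fold change (limma adjusted p = 3.09e-05). In KO2 it rose by 0.61 ± 0.07, a 1.53-fold change (limma adjusted p = 0.000117). These calls, and those of IRF1 against control, held in all 20 alternatives.

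IFIT2 (ENSG00000119922, chr10:89283694-89309271, plus strand), a partner of IFIT1 and IFIT3, had 9.18, 9.26 and 8.04 TPM in KO1 and 9.10, 11.1 and 8.60 TPM in KO2, against 7.38, 5.91 and 6.76 TPM in control. All libraries of both clones lay above control. The log2 fold change was 0.40 ± 0.13 in KO1 (limma adjusted p = 0.033) and 0.52 ± 0.13 in KO2 (adjusted p = 0.0118), on 58 to 110 reads per library. The KO1 call ended without KO1 replicate A (adjusted p = 0.0895) or B (0.0953) and without control replicate B (0.118) or C (0.0693). IFIT1 (ENSG00000185745, chr10:89392546-89406487, plus strand), which binds RNA with an incompletely methylated cap, had 6.34, 5.55 and 5.47 TPM in KO1 and 5.77, 4.64 and 6.65 TPM in KO2, against 4.29, 5.08 and 3.76 TPM in control. The KO1 libraries lay above control, and KO2 replicate B lay within the control range. The log2 fold change was 0.41 in KO1 (95% interval 0.05 to 0.77, limma adjusted p = 0.0767) and 0.37 in KO2 (0.01 to 0.74, adjusted p = 0.112), neither of which passed the threshold. Without KO2 replicate B the KO2 value was 0.51 and passed (limma adjusted p = 0.0409). The sources used here do not say how reads that match several related IFIT genes were counted.

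ISG15 (ENSG00000187608, chr1:1001138-1014540, plus strand) had 33.6, 25.0 and 35.0 TPM in KO1 and 29.9, 39.1 and 27.3 TPM in KO2, against 32.8, 32.4 and 33.9 TPM in control. The control libraries lay within the range of each clone. The log2 fold change was -0.10 in KO1 (95% interval -0.42 to 0.23, limma adjusted p = 0.644) and -0.06 in KO2 (-0.38 to 0.27, adjusted p = 0.809), so these intervals leave room for a change of about that width either way. The SD was 5.43 TPM in KO1 and 6.19 TPM in KO2, against 0.79 TPM in control, and 68 to 100 reads per library lay behind the values. IFIH1 (ENSG00000115267, chr2:162267074-162318684, minus strand), the sensor among the members, had 3.82, 5.27 and 5.66 TPM in KO1 and 5.88, 6.13 and 6.16 TPM in KO2, against 5.73, 5.72 and 5.36 TPM in control. KO2 lay just above control without overlap, and KO1 replicate A was the lowest of the 9 libraries. The log2 fold change was -0.21 in KO1 (95% interval -0.54 to 0.12, limma adjusted p = 0.304) and 0.11 in KO2 (-0.22 to 0.44, adjusted p = 0.609).

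**Figure D2:**
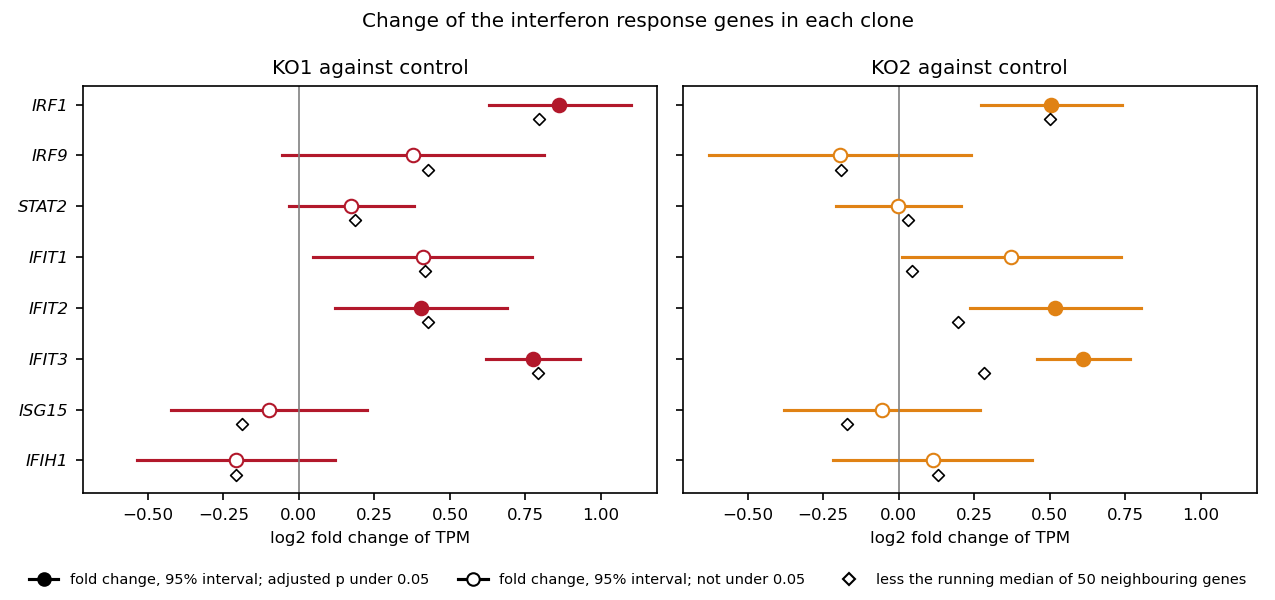
Log2 fold change of TPM (horizontal axes) of the 8 members in KO1 and KO2 against control, with 95% intervals as lines and filled circles for a limma adjusted p under 0.05. Open diamonds give the value less the running median of the 50 neighbouring tested genes: for IFIT1, IFIT2 and IFIT3 they lie left of the circles in KO2 and close to them in KO1.

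The 2 clones were also compared with each other, since they are independent clones with the same targeted gene. Of the 8 members 0 were called higher and 1 lower in KO2 than in KO1, against a background of 28.7% of tested genes called, 11.8% higher and 16.9% lower, and 3 members had an unadjusted p under 0.05. Of all calls between the clones 41.1% were higher in KO2, and 55.5% with median centring. The median log2 difference of the members was -0.10, against -0.037 for all tested genes. IRF1 was lower in KO2 than in KO1 by 0.36 ± 0.11 on the log2 scale (95% interval -0.59 to -0.12, limma adjusted p = 0.0295). That call ended under median centring (adjusted p = 0.0587) and quantile normalization (0.0575), and also without any 1 of KO1 replicates A to C or KO2 replicates B and C (0.0637 to 0.0875). IRF9 differed by -0.57 (95% interval -1.01 to -0.14, limma adjusted p = 0.0514), and without KO2 replicate A by -0.72 (0.031). It also passed on log2(TPM + 1), on log2(TPM + 5) and with limma-voom on recovered reads (0.0438, 0.0353 and 0.0419). IFIT3 differed by -0.16 (limma adjusted p = 0.103), IFIT2 by 0.11 (0.546) and IFIT1 by -0.04 (0.893). Without KO2 replicate C, IFIT3 differed by -0.22 and passed (limma adjusted p = 0.0382), while IRF1 did not (0.0843). STAT2 differed by -0.17 (limma adjusted p = 0.192), ISG15 by 0.04 (0.863) and IFIH1 by 0.32 (0.132), although all KO2 libraries of IFIH1 lay above all KO1 libraries.

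The neighbours of the IFIT genes on chromosome 10 moved with them in KO2. Of the 50 tested genes nearest to IFIT3, 43 had a log2 fold change above 0 in KO2, 33 were called higher and 3 lower, and their median was 0.36. These 50 include the members IFIT1 and IFIT2, and IFIT5. In KO1, 24 of these 50 were above 0, 5 were called higher and 8 lower, and their median was -0.040. IFIT5, the fourth IFIT gene of the locus, had a log2 fold change of 0.11 in KO1 (limma adjusted p = 0.335) and 0.37 in KO2 (0.00692). Genes nearby with other functions had like values in KO2, with 0.39 for LIPA, a lysosomal lipase (limma adjusted p = 0.00323), and 0.50 for FAS, a death receptor (0.00405). In KO1 they had -0.05 and 0.16, neither of them called. LIPA shares 65 exon bases with IFIT2 and 94 with IFIT3 on the other strand.

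With the running median of these neighbours subtracted from each library, IFIT3 still rose, by 0.79 in KO1 (limma adjusted p = 1.38e-05) and by 0.28 in KO2 (0.00759), and it was lower in KO2 than in KO1 by 0.51 (0.000381). IFIT2 was then at 0.43 in KO1 (limma adjusted p = 0.0253) and at 0.20 in KO2 (0.276), which ended its KO2 call. IFIT1 was at 0.42 in KO1 (limma adjusted p = 0.0652) and at 0.04 in KO2 (0.863). IRF1 changed little by this step, with 0.80 in KO1 (limma adjusted p = 0.00072) and 0.50 in KO2 (0.0107), and its difference between the clones was -0.30 (0.0948). Around ISG15, near the end of chromosome 1, 39 of 50 neighbours lay above 0 in KO2, with a median of 0.14, and 34 in KO1, with a median of 0.11. Around IRF1, IRF9, STAT2 and IFIH1 the medians lay between -0.063 and 0.070 in KO1 and between -0.038 and 0.023 in KO2.

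**Figure D3:**
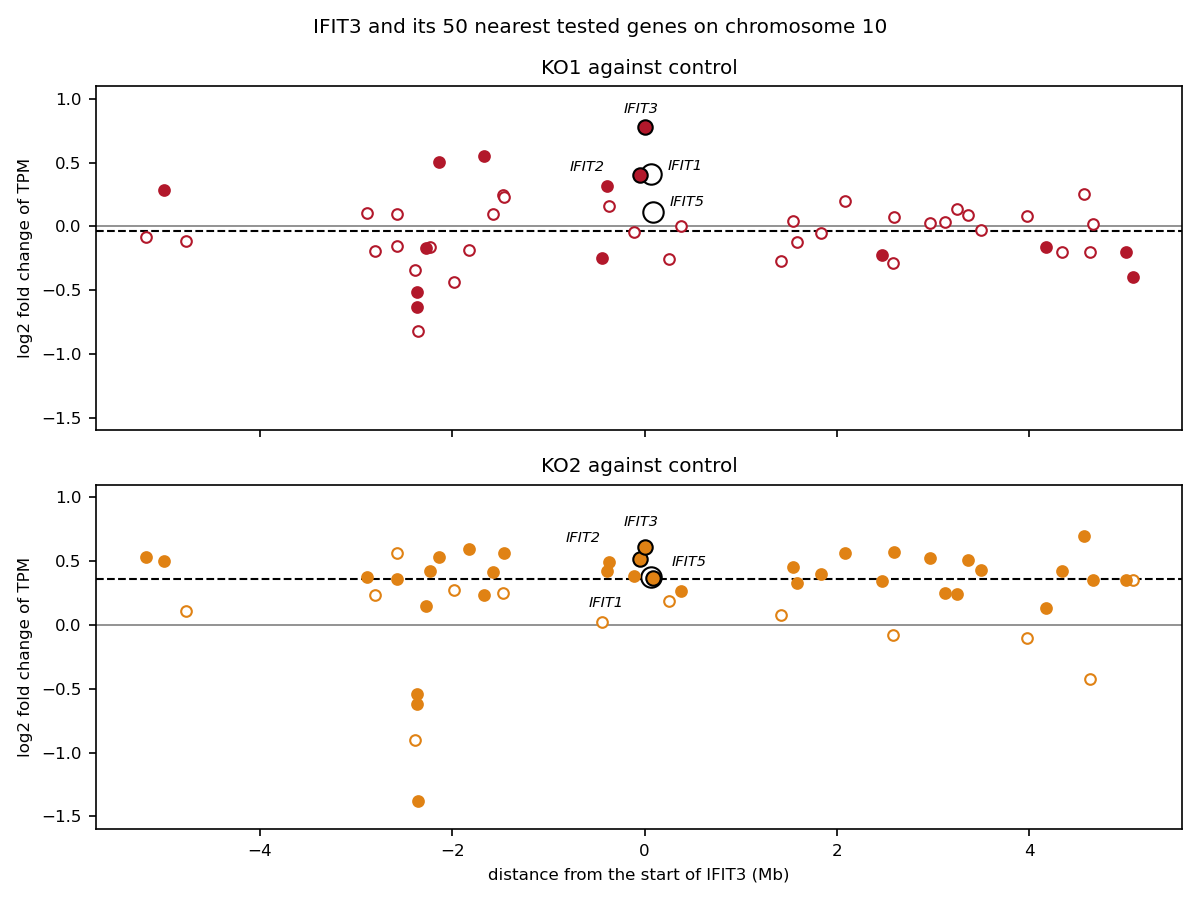
Log2 fold change of TPM (vertical axis) of IFIT3 and its 50 nearest tested genes against their distance from the start of IFIT3 in Mb (horizontal axis), in KO1 (top) and KO2 (bottom) against control. Filled circles have a limma adjusted p under 0.05, large circles with a black edge are the 4 IFIT genes, and dashed lines are the medians of the 50 neighbours, -0.040 in KO1 and 0.36 in KO2. In KO1 IFIT3 is the highest point of the stretch, and in KO2 most of the stretch is above 0; the points of IFIT1 (open) and IFIT5 (filled) coincide there.

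The rest of the pathway was followed through 8 lists with 133 genes, of which 95 had values and 89 were tested. Earlier results of these data were known when the lists were chosen. Over all 8 lists 27 genes were called higher and 15 lower in KO1 (30.3% and 16.9%, with a median log2 fold change of 0.11), beside the 20.2% and 14.1% of all tested genes. In KO2, 19 were called higher and 18 lower (21.3% and 20.2%, with a median of -0.018), beside 15.6% and 14.8%. Between the clones 6 were called higher and 24 lower in KO2 (6.74% and 27.0%, median -0.11), beside the 11.8% and 16.9% of all tested genes.

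Of 18 listed interferon ligand genes only IFNE, a type I interferon known from epithelia of the reproductive tract, had a value. It had 2.78, 2.87 and 2.16 TPM in KO1 and 2.21, 2.53 and 2.93 TPM in KO2, against 2.15, 2.61 and 3.45 TPM in control, which overlapped throughout (log2 fold changes -0.06 and -0.08, limma adjusted p = 0.866 and 0.812). All 9 genes of the receptors and JAK kinases were tested, with 2 called higher and 1 lower in KO1, and 2 higher and 2 lower in KO2. The shares of all tested genes were 20.2% higher and 14.1% lower in KO1, and 15.6% and 14.8% in KO2. IFNAR1, a subunit of the type I interferon receptor, had 22.9, 24.1 and 23.9 TPM in KO1 and 18.3, 18.0 and 19.3 TPM in KO2, against 19.2, 15.1 and 16.9 TPM in control. It rose by 0.48 in KO1 (limma adjusted p = 0.00217), while KO2 overlapped control (0.13, adjusted p = 0.294). Its partner IFNAR2 had 6.69, 5.92 and 5.64 TPM in KO1 and 3.45, 3.46 and 4.75 TPM in KO2, against 5.02, 6.34 and 5.84 TPM in control. It was lower in KO2 by 0.57 (limma adjusted p = 0.0204), a call that ended without KO2 replicate A or B or control replicate B or C (adjusted p = 0.0591 to 0.0762), and was not called in KO1 (0.09, adjusted p = 0.707). IFNLR1, the specific subunit of the type III receptor, fell by 0.67 in KO1 (limma adjusted p = 0.012).

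Of the other STAT and IRF factors 4 were tested, with 1 called higher and 2 lower in KO1, and 1 higher and 1 lower in KO2. Beside these stand 20.2% higher and 14.1% lower of all tested genes in KO1, and 15.6% and 14.8% in KO2. IRF3, the factor that acts downstream of viral RNA and DNA sensing, was at 53.8 ± 1.06 TPM in KO1 and 51.4 ± 2.15 TPM in KO2, against 67.2 ± 4.76 TPM in control. It fell by 0.32 in KO1 (limma adjusted p = 0.00211) and by 0.39 in KO2 (0.000657). IRF2, an antagonist of IRF1 at shared sites, fell by 0.35 in KO1 (limma adjusted p = 0.00145) and was not called in KO2 (-0.06, adjusted p = 0.449).

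Of 16 tested genes of nucleic acid sensing and its relay, 4 were called higher and 2 lower in KO1, and 1 higher and 4 lower in KO2. Among all tested genes 20.2% were higher and 14.1% lower in KO1, and 15.6% and 14.8% in KO2. STING1, the adaptor of cytosolic DNA sensing, had 18.1, 19.8 and 19.8 TPM in KO1 and 7.22, 8.51 and 8.15 TPM in KO2, against 12.0, 10.4 and 9.99 TPM in control. KO1 lay above control and KO2 below it without overlap, with log2 fold changes of 0.83 in KO1 (limma adjusted p = 0.000186) and -0.44 in KO2 (0.00753). RIGI, an RNA sensor related to IFIH1, was at 6.18 ± 0.67 TPM in KO1 and 4.18 ± 0.56 TPM in KO2, against 6.02 ± 0.68 TPM in control. It fell by 0.53 in KO2 (limma adjusted p = 0.0206), which ended without KO2 replicate B or control replicate A or C (adjusted p = 0.051 to 0.0758). MAVS, the adaptor of both RIGI and IFIH1, was at 47.1 ± 0.78 TPM in KO1 and 38.2 ± 2.03 TPM in KO2, against 55.3 ± 2.24 TPM in control. It fell by 0.23 in KO1 (limma adjusted p = 0.00841) and by 0.53 in KO2 (5.08e-05), beside running medians of its neighbours on chromosome 20 of -0.56 and -0.60. With these subtracted MAVS was at 0.34 in KO1 (limma adjusted p = 0.00183) and at 0.07 in KO2 (0.446).

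The antiviral effectors other than the members had 35 tested genes, with 12 called higher and 3 lower in KO1 (median 0.17), and 11 higher and 6 lower in KO2 (median 0.037). Among all tested genes the shares were 20.2% higher and 14.1% lower in KO1, and 15.6% and 14.8% in KO2. OAS1, which makes the oligoadenylate that activates RNase L, had 10.7, 11.7 and 11.4 TPM in KO1 and 4.02, 4.88 and 5.42 TPM in KO2, against 12.1, 12.5 and 12.1 TPM in control. It fell by 1.37 in KO2 (limma adjusted p = 1.51e-05) and was not called in KO1 (-0.12, adjusted p = 0.445). ZC3HAV1, the zinc finger antiviral protein, had 38.0, 36.7 and 40.3 TPM in KO1 and 30.1, 30.3 and 30.6 TPM in KO2, against 24.6, 22.1 and 25.0 TPM in control. The 3 lines did not overlap, and it rose by 0.68 in KO1 (limma adjusted p = 3.66e-05) and by 0.35 in KO2 (0.00223). IFI44, an interferon-induced gene of chromosome 1, rose by 0.30 in KO1 (limma adjusted p = 0.00554) and by 0.49 in KO2 (0.000333). Its neighbour IFI44L was at 1.62 ± 0.38 TPM in KO1 and 1.90 ± 0.19 TPM in KO2, against 0.82 ± 0.22 TPM in control. It rose by 0.99 in KO1 (limma adjusted p = 0.0146, and 0.0615 without KO1 replicate C) and by 1.24 in KO2 (0.00489). PML, the scaffold of nuclear bodies, rose by 0.53 in KO1 (limma adjusted p = 0.000771) and was not called in KO2 (0.08, adjusted p = 0.465).

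Of 4 tested genes of ISG15 conjugation, 0 were called higher and 3 lower in KO1, and 0 higher and 1 lower in KO2, beside 14.1% and 14.8% of all tested genes called lower. USP18, which removes ISG15 and damps type I interferon signalling, had 10.7, 9.27 and 7.49 TPM in KO1 and 14.9, 12.8 and 10.3 TPM in KO2, against 15.2, 16.1 and 14.6 TPM in control. It fell by 0.75 in KO1 (limma adjusted p = 0.00439) and overlapped control in KO2 (-0.29, adjusted p = 0.19). UBE2L6, the conjugating enzyme, fell by 0.26 in KO1 (limma adjusted p = 0.0121). UBA7, the activating enzyme, was at 4.15 ± 0.42 TPM in KO1 and 3.20 ± 0.39 TPM in KO2, against 5.76 ± 0.82 TPM in control. It fell by 0.47 in KO1 (limma adjusted p = 0.0383) and by 0.85 in KO2 (0.0022). The KO1 call of UBA7 ended without KO1 replicate A or B or control replicate B or C (limma adjusted p = 0.058 to 0.141).

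Of 7 tested genes of the interferon gamma response, 4 were called higher and 1 lower in KO1, and 2 higher and 0 lower in KO2. Beside them, 20.2% of all tested genes were higher and 14.1% lower in KO1, and 15.6% and 14.8% in KO2. GBP1, a GTPase of cell-autonomous immunity, had 4.90, 4.37 and 4.59 TPM in KO1 and 3.75, 3.29 and 2.77 TPM in KO2, against 2.79, 3.02 and 1.40 TPM in control. It rose by 1.02 in KO1 (limma adjusted p = 0.0151) and overlapped control in KO2 (0.51, adjusted p = 0.182). ICAM1, an adhesion receptor for leukocytes, was at 16.2 ± 0.35 TPM in KO1 and 7.13 ± 1.05 TPM in KO2, against 9.13 ± 1.17 TPM in control. It rose by 0.83 in KO1 (limma adjusted p = 0.000799), with -0.36 in KO2 (0.0556). CD274, the ligand of PD-1, fell by 0.37 in KO1 (limma adjusted p = 0.00335) and was not called in KO2 (-0.05, adjusted p = 0.651).

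Of 13 tested negative regulators, 4 were called higher and 3 lower in KO1, and 2 higher and 4 lower in KO2. The background of all tested genes was 20.2% higher and 14.1% lower in KO1, and 15.6% and 14.8% in KO2. ADAR, an RNA editing enzyme that limits sensing of the cell's own RNA by IFIH1, had 155, 151 and 163 TPM in KO1 and 128, 129 and 124 TPM in KO2, against 115, 120 and 118 TPM in control. It rose by 0.41 in KO1 (limma adjusted p = 4.27e-05) and by 0.11 in KO2 (0.0478). The KO2 call of ADAR ended without KO1 replicate A, KO2 replicate A or B, or any 1 control replicate (limma adjusted p = 0.0638 to 0.128). It also ended with limma-voom (0.0693), log2(TPM + 5) (0.0502), a filter of 5 TPM (0.0505) and no trend of the variance (0.109). The same held with the 2 lines fitted alone (0.0648), quantile normalization (0.118) and the replicate block (0.098). PIAS3, an inhibitor of STAT3, was at 24.6 ± 0.87 TPM in KO1 and 18.1 ± 0.80 TPM in KO2, against 28.5 ± 0.99 TPM in control. It fell by 0.66 in KO2 (limma adjusted p = 2.94e-05) and by 0.21 in KO1 (0.0216). The KO1 call of PIAS3 ended with the neighbours subtracted (limma adjusted p = 0.105) and without KO1 replicate B or C or control replicate A or B (0.0661 to 0.0721). PTPN2, a phosphatase that acts on JAK1, was at 25.1 ± 1.13 TPM in KO1 and 25.8 ± 0.75 TPM in KO2, against 35.0 ± 1.33 TPM in control. It fell by 0.48 in KO1 (limma adjusted p = 0.0002) and by 0.44 in KO2 (0.000306), with running medians of -0.41 and -0.44 among its neighbours on chromosome 18. Less these medians PTPN2 was at -0.07 (limma adjusted p = 0.394) and 0.0006 (0.996), so neither call remained.

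**Figure D4:**
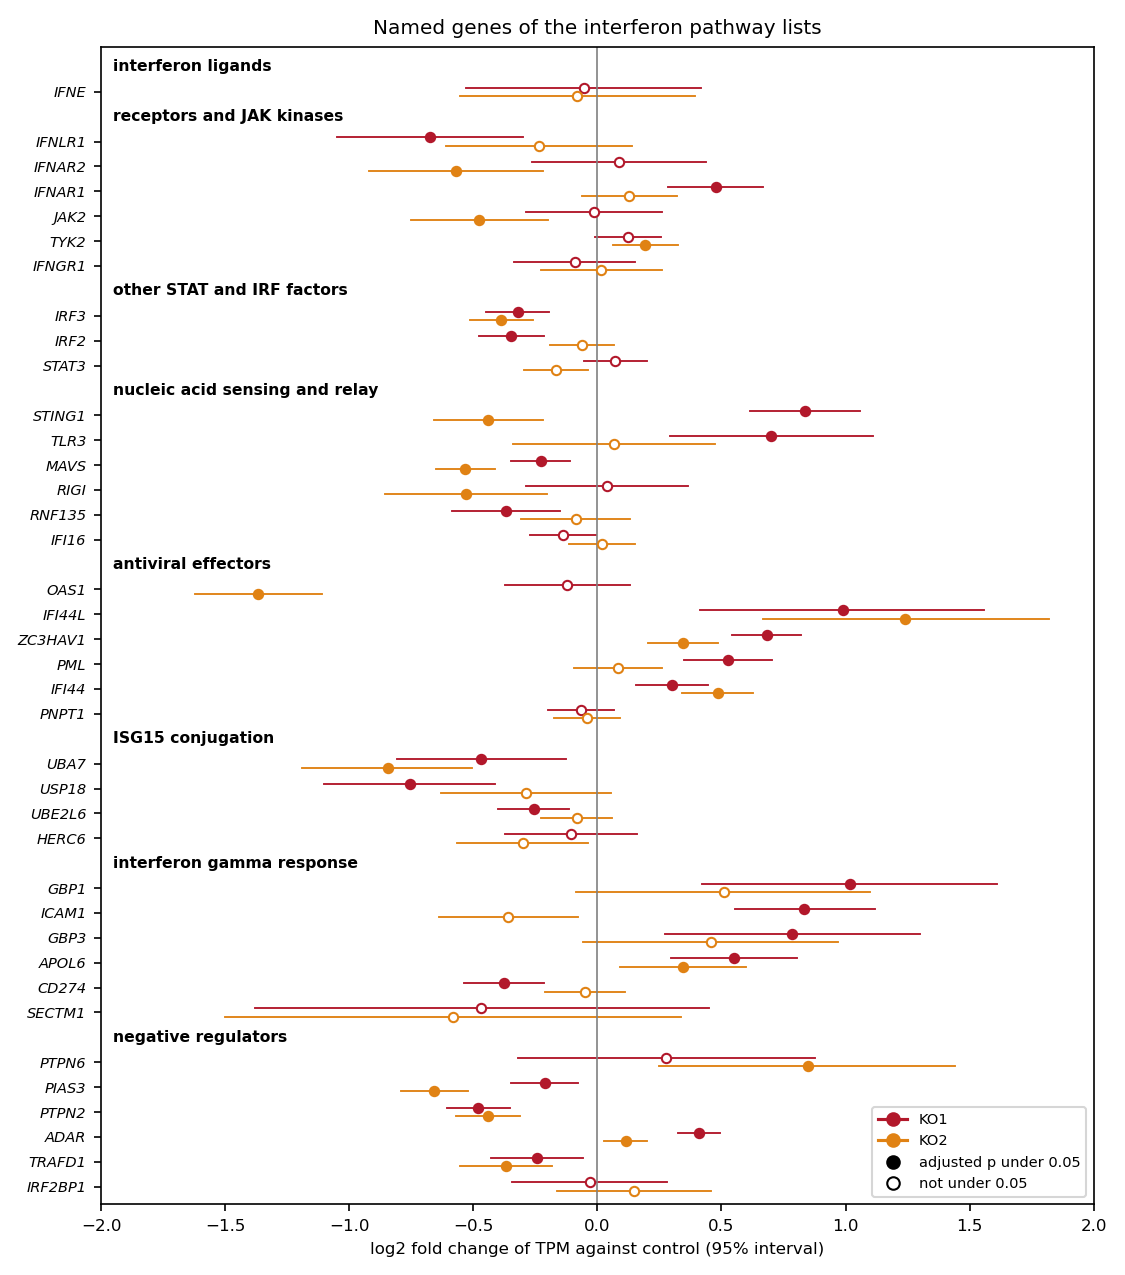
Log2 fold change of TPM against control (horizontal axis, with 95% intervals as lines) of the named genes of the 8 pathway lists, KO1 above KO2 in each row. Filled circles have a limma adjusted p under 0.05. STING1, OAS1 and ICAM1 differ most between the clones, and IFI44L, ZC3HAV1 and IFI44 lie above 0 in both.

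The members were also compared in pattern over the 9 libraries with their own mean, each member first centred on its mean log2 TPM. Pearson's r with that mean, of which each member is itself a part, was 0.974 for IFIT3, 0.944 for IRF1, 0.754 for IFIT1 and 0.701 for IFIT2. It was 0.494 for STAT2, 0.448 for IRF9, -0.268 for ISG15 and -0.272 for IFIH1. The 5 other tested genes most like this mean profile were SCHIP1 (r = 0.988), MYCBP2 (0.986), LCOR, TOR1AIP2 and ANKFY1 (0.985 each). SCHIP1 was at 13.5 ± 0.22 TPM in KO1 and 11.6 ± 0.59 TPM in KO2, against 8.85 ± 0.31 TPM in control. MYCBP2 was at 28.2 ± 0.81 TPM in KO1 and 25.8 ± 0.88 TPM in KO2, against 19.6 ± 0.87 TPM in control. In all 5 the level was highest in KO1 and lowest in control. Of 14504 other tested genes 546 had an r above 0.9, and the 9 points fall into 3 lines, so r describes mostly the order of the lines.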

How the data were processed

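Input mRNA of 3 lines was sequenced in 9 libraries. Per the labels' protocols, Trizol RNA was purified on mRNA-binding magnetic beads and made into directional libraries. The submitters' processing notes name hg38 and the tools edgeR 3.12.1, R 3.3.3, featureCounts, deepTools 3.0.2, SAMtools 1.7 and HISAT2 2.0.4. Their roles, the annotation and the strand setting of read assignment are not stated there. The deposited values are log2 TPM per gene. Back on the linear scale each library sums to 1000000, so the authors scaled TPM over the listed genes. From these, whole reads were recovered for 100% of genes (tolerance 1e-06 reads, largest distance 6e-09), 84602764 in all. A limit of 3 reads is 0.263 to 0.382 reads per 1000000, which covers counting error only.

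The test was limma-trend (limma 3.58.1, R 4.3.3) on the deposited log2 values, with 1 mean per line and 6 residual degrees of freedom. P-values were two-sided and adjusted by Benjamini-Hochberg across all 14512 genes that averaged 1 TPM or more. A gene was called at an adjusted p under 0.05, and intervals are 95% intervals of that fit. P-values describe how libraries of the same line vary, and say nothing of how independently edited lines would. No pair of replicates was alike within sampling noise, with a chi-square of 1.22 to 3.71 times its degrees of freedom. Neighbours are the 50 nearest tested genes by their positions in GENCODE 44. A gene symbol was found for 15138 of 15258 identifiers. From each list up to 5 genes called in KO1 or KO2 were taken, by the larger absolute fold change, and the most abundant of those called in neither. The plot of the pathway lists shows them, except 1 gene that is not reported here, and the text gives values for some of them. The members and lists were chosen with earlier results of these data known. Alternatives were log2(TPM + 1) and log2(TPM + 5), 2 filters, quantile normalization, median centring, no trend of the variance, a fit of the 2 lines compared, a replicate block, the running median of neighbours subtracted, limma-voom on recovered reads and leaving out each library.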

Additional observations from a re-analysis of the deposited data

Results flagged for a closer look

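Of 46 named genes, 18 differed between the clones themselves (limma adjusted p under 0.05, KO2 minus KO1 on the log2 scale), beside 28.7% of all tested genes. Most list genes were named because they were called against control in these same libraries, so this count is no measure of the pathway. Of the members, IRF1 differed by -0.36 (adjusted p = 0.0295). Of receptors, kinases and factors, IFNAR2 differed by -0.66, IFNAR1 by -0.35, JAK2 by -0.46, STAT3 by -0.24 and IRF2 by 0.28. Of sensing genes, STING1 differed by -1.27 (adjusted p = 1.89e-05), TLR3 by -0.63, RIGI by -0.57 and MAVS by -0.30. Of effectors, OAS1 differed by -1.25 (adjusted p = 4.86e-05), PML by -0.44 and ZC3HAV1 by -0.34, and of ISG15 conjugation USP18 by 0.47. Of the remaining lists, ICAM1 differed by -1.19 (adjusted p = 0.000119), CD274 by 0.33, PIAS3 by -0.44 and ADAR by -0.29. Some of these calls ended without 1 library: JAK2 without KO2 replicate A or KO1 replicate B or C (adjusted p = 0.0608 to 0.0676), RIGI without KO1 replicate A or C (0.0535 and 0.0609) and TLR3 without KO2 replicate B or C or KO1 replicate B or C (0.0592 to 0.0976). USP18 lost its call without any 1 library other than KO2 replicate C and KO1 replicate A (0.0622 to 0.155), and IRF1 as given in the comparison of the clones.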

How the results depend on the processing

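In 20 alternatives the counts of members called in KO1 and in KO2 against control stayed within 1.5 times the reported 3. For KO2 against KO1 the count was 1. It was 2 with limma-voom, log2(TPM + 1) and log2(TPM + 5), and 0 with median centring, quantile normalization and the replicate block. When 1 library was left out it was 0 to 2. The member called could also change at the same count. Without KO2 replicate C, and with the neighbours subtracted, it was IFIT3 in place of IRF1. No effect shared by replicate letter was seen: same-letter libraries of different lines had correlations of -0.074 to 0.037 in 9 pairs, against -0.109 to 0.123 in 18 pairs with other letters. The labels do not say what the letters mark, and these correlations cannot settle whether libraries were prepared together. The replicate block gave 4375 calls in KO1, 3877 in KO2 and 3516 between the clones, against 4975, 4414 and 4165 without it. Under it the KO1 call of IFIT2 (adjusted p = 0.052) and the IRF1 difference between clones (0.051) ended.

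The share of KO1 calls that were higher was 49.7% with median centring, 52.0% with quantile normalization and 49.1% with the neighbours subtracted, against 58.9%. Of the members' log2 fold changes, those that changed sign were all uncalled. With 1 library left out, ISG15 in KO1 ranged from -0.19 to 0.055 (without KO1 replicate B), and in KO2 from -0.21 to 0.05 (without KO2 replicate C). IRF9 in KO2 ranged from -0.35 to 0.053 (without KO2 replicate B), and STAT2 in KO2 from -0.061 to 0.10 (without KO2 replicate C; 0.04 without control replicate A). Between the clones, IFIT1 ranged from -0.16 to 0.10 (without KO2 replicate B; 0.03 without KO1 replicate A) and ISG15 from -0.11 (without KO1 replicate B or KO2 replicate B) to 0.15. STAT2 in KO2 was 0.00 on log2(TPM + 5), 0.011 with median centring, 0.0065 with quantile normalization and 0.032 with the neighbours subtracted. IFIT1 between the clones was 0.020 with limma-voom, 0.012 with median centring and 0.008 with quantile normalization, and IFIT2 was -0.23 with the neighbours subtracted. Subtracting them also turned MAVS in KO1 (0.34) and KO2 (0.065) and PTPN2 in KO2 (0.0006). Of 1170 values of called list genes, 91 lost the call and 3 turned.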
